A study of Mus musculus with 18 samples.

Results

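Axon guidance genes were described in mouse medulloblastomas, tumours of the cerebellum, from arrays that measured RNA in bulk tumour tissue. The set was taken by gene symbol from the platform annotation and comprised the Eph receptors and their ephrins, semaphorins of classes 3 to 7, plexins, neuropilins, netrins, Unc5 receptors, Slits and Robos. It held 68 of the 19938 genes measured, of which 13 were Eph receptors, 8 ephrins, 20 semaphorins, 9 plexins, 2 neuropilins, 5 netrins, 4 Unc5 receptors, 3 Slits and 4 Robos. Of the 70 RefSeq genes that match these symbols, Ntng2 and Ephb2 were not analysed here.

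The 18 arrays (Affymetrix Gene ST 1.0) fell into 5 groups, 1 array per labelled sample. GFD-Smo;GFAP-cre (n = 4) and NG-Smo;Atoh1-CreER (n = 4) were tumours of Smo mice and are written GFD-Smo and NG-Smo, and GFI-Ptch (n = 4), GFD-Ptch (n = 2) and NG-Ptch (n = 4) were tumours of Ptch mice. The labels name the subtypes NG, GFD and GFI without spelling them out. The Ptch and Smo alleles, the strains and the ages are not given in the sources used here. Ptch1 is the receptor that restrains the Hedgehog transducer Smo, so both models are named for the Hedgehog pathway. The Atoh1 element drives Cre mainly in granule neuron progenitors, and GFAP-cre is active in neural stem cells and glia, so GFD-Smo and NG-Smo differ both in subtype and in Cre driver, which cannot be told apart. GFI-Ptch replicate 4 was labelled as progressed from another tumour in an NSG female host, and is called the transplanted tumour.

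Guidance cues steer growing axons and migrating neurons, and the same families act in blood vessels. Ephrins are bound to the cell surface and signal to Eph receptors on touching cells, with signals running both ways. Secreted class 3 semaphorins bind neuropilins that are paired with plexins, whereas most membrane semaphorins bind plexins directly, netrins act through Dcc and Unc5 receptors, and Slits act through Robos. In the mouse cerebellum Unc5c, Plxnb2 and the pair Sema6a and Plxna2 are known for roles in the placing and migration of granule cells, the lineage of Hedgehog medulloblastoma.

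Values are on the log2 scale as deposited, so that a difference of 1 is a doubling. Levels are compared between groups for 1 gene or 1 marker list at a time. Across genes they serve only to choose probe sets and named genes, and to place levels against the lower quartile of all probe sets. A gene is called changed when its adjusted p is under 0.05 in limma, fitted over all 19938 genes and all 18 arrays with Benjamini-Hochberg adjustment. The highest group mean reached 7 in 66 of the 68 genes and lay below it in Epha1 and Epha6, where the lower quartile of all probe sets on an array was 6.21 to 6.38. Replicates correlated over all genes at 0.970 to 0.998, and the transplanted tumour had the lowest mean correlation with its own group, 0.972. NG-Smo replicate 4 had the lowest in NG-Smo, 0.985, against 0.984 with other groups. GFI-Ptch replicates 1 to 3 had mean correlations of 0.983, 0.985 and 0.984 within their group, against 0.984, 0.987 and 0.984 with other groups. The means within the group include the transplanted tumour, and the highest correlation between GFI-Ptch arrays was 0.992. Of 13 arrays with a male or female label 10 matched their Y-linked transcripts and 3 did not, namely the transplanted tumour and replicates 2 and 3 of GFD-Smo. Y-linked transcripts were found in 1 of 4 GFD-Smo, 2 of 4 NG-Smo, 1 of 4 GFI-Ptch, both GFD-Ptch and no NG-Ptch arrays. The markers of granule neuron progenitors had mean levels of 11.49 to 11.60 in GFD-Smo, 11.37 to 11.59 in NG-Smo, 11.26 to 11.84 in GFI-Ptch, 11.69 to 11.76 in GFD-Ptch and 11.71 to 11.84 in NG-Ptch, far above that lower quartile.

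Of the 68 genes 19 were called in at least 1 of the 7 comparisons and 49 in none. The promoters of 4 of the 19 are shown for reading beside their values below. Ephb4 and Slit2 had the lowest adjusted p of the set between the Smo groups. Sema5a and Sema3c were higher in GFD-Smo than in GFD-Ptch and hold the letters TGGGTGG. The bases run from 250 before to 50 after the start of the gene in RefSeq (GRCm38.p6), 5′ to 3′ on the strand of the gene, which is the plus strand for all 4. Capitals mark TGGGTGG, the first part of TGGGTGGTC, a consensus of the Gli factors.
Ephb4 (chr5:137349859-137350158): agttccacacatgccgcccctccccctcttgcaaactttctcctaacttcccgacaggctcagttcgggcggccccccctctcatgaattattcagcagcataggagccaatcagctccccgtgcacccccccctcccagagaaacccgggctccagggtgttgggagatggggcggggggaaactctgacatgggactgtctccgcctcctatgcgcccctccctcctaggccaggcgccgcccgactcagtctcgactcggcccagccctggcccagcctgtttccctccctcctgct
Slit2 (chr5:47982905-47983204): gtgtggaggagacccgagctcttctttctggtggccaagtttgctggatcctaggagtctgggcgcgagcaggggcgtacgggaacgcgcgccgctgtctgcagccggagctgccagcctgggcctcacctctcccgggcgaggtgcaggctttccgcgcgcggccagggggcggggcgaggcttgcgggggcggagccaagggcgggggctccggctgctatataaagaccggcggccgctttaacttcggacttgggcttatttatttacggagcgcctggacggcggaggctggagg
Sema5a (chr15:32244563-32244862): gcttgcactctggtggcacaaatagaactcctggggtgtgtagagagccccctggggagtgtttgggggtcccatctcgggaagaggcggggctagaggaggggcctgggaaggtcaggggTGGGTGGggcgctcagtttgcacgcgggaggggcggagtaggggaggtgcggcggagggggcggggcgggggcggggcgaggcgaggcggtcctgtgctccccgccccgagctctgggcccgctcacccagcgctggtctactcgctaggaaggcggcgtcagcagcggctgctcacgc
Sema3c (chr5:17574566-17574865): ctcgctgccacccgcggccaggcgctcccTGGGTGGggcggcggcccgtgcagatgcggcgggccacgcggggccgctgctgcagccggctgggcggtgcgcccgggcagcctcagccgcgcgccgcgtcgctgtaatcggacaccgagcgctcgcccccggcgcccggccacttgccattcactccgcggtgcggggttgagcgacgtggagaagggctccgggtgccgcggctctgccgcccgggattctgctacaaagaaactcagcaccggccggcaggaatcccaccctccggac
Both strands were searched. TGGGTGG, also counted inside TGGGTGGTC, was found in promoters of 7 of the 59 genes of the set that matched the RefSeq promoter table (11.9%), against 10.6% of all 27025 genes there. The 7 were Plxna2, Robo2, Sema3c, Sema3g, Sema4a, Sema5a and Sema6c. In GFD-Smo against GFD-Ptch, Sema3c and Sema5a of these were called higher, Plxna2 and Sema3g were called lower, and the others were not called. TGGGTGGTC itself was in 0 of the 59 and in 0.289% of all genes. The Ephb4 and Slit2 windows hold neither, which says only that these letters are not in them.

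**Figure D1:**
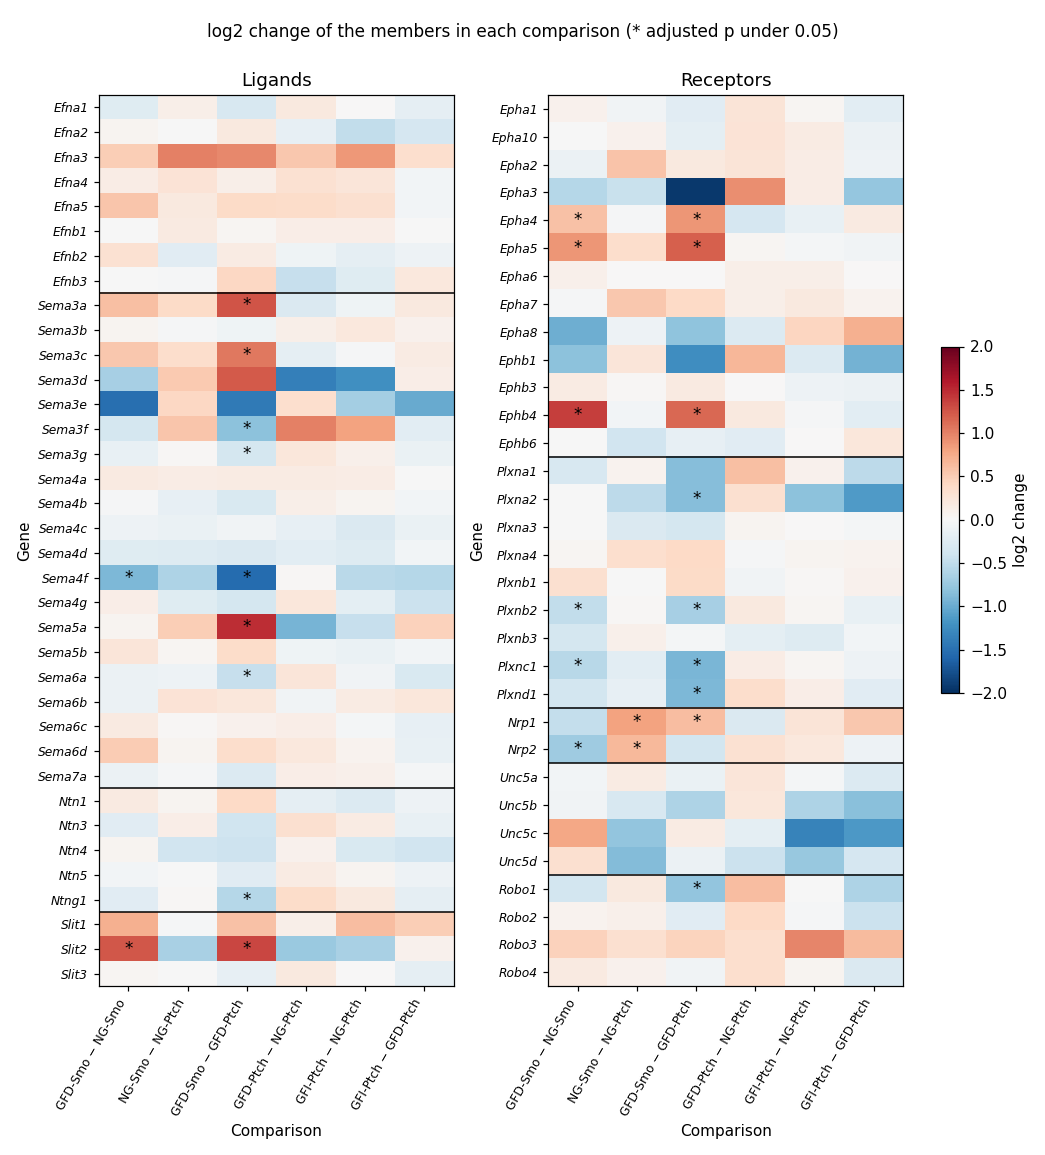
Heat map of the log2 change of each of the 68 genes (rows, ligands left and receptors right, in families parted by lines) in 6 comparisons (columns), with red higher and blue lower in the group named first and the colour scale ending at -2 and 2. Stars mark adjusted p under 0.05: 8 genes in GFD-Smo against NG-Smo, 2 in NG-Smo against NG-Ptch, 18 in GFD-Smo against GFD-Ptch and 0 in the 3 comparisons among Ptch tumours.

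Between the Smo groups, 3 of 13 Eph receptors and Slit2 were called higher in GFD-Smo, and 2 of 9 plexins, a neuropilin and a semaphorin were called lower. In limma 8 of the 68 genes were called (11.8%), against 5.31% of all genes. The genes higher in GFD-Smo were 4 (5.88%, against 2.81% of all genes) and those lower were 4 (5.88%, against 2.49%). By family the calls were 3 higher of 13 Eph receptors, 1 higher of 3 Slits, 2 lower of 9 plexins, 1 lower of 2 neuropilins and 1 lower of 20 semaphorins. None of the 8 ephrins, 5 netrins, 4 Unc5 receptors or 4 Robos was called. The median change of the set was -0.01 and that of all genes was -0.01.

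Among receptors, Ephb4, the ephrin-B2 receptor known best from veins (probe set 10526566), had the lowest adjusted p. It read 8.55, 8.67, 8.52 and 8.75 in the GFD-Smo arrays, against 7.15, 7.27, 7.24 and 7.33 in the NG-Smo arrays. Every GFD-Smo array lay more than 1 log2 unit above every NG-Smo array. The change was 1.38 (SE 0.10, 2.6-fold, adjusted p = 4.18e-06). All Ptch arrays lay below the GFD-Smo arrays too, with means of 7.26 ± 0.23 in GFI-Ptch (SD, n = 4), 7.48 ± 0.06 in GFD-Ptch (n = 2) and 7.30 ± 0.16 in NG-Ptch (n = 4). Its ligand Efnb2 differed by 0.31 between the Smo groups and was not called (adjusted p = 0.102).

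Epha5 (10530870), a neuronal receptor of A-type ephrins, was at 8.03, 7.87, 8.005 and 8.49 in GFD-Smo, against 6.86, 7.02, 7.80 and 7.19 in NG-Smo. The groups did not overlap, though the gap between the lowest GFD-Smo and the highest NG-Smo array was small, and the change was 0.88 (SE 0.19, adjusted p = 0.011). Epha4 (10355893), which binds ephrins of both classes, was at 8.45, 8.46, 8.15 and 8.45 in GFD-Smo, against 7.70, 7.72, 7.89 and 7.87 in NG-Smo. GFD-Smo replicate 3 was the lowest of its group and still above all NG-Smo arrays, and the gene rose by 0.58 (SE 0.13, adjusted p = 0.0179). Of the A-type ephrins, Efna5 differed by 0.55 (adjusted p = 0.458) and Efna3 by 0.49 (0.859), and neither was called. The other Eph receptors ranged from -0.98 in Epha8 to 0.17 in Ephb3. Among these, Ephb1 differed by -0.82 and its other probe set by -0.64 (unadjusted p in limma 0.0358 and 0.0452). Ephb1 was not called, but became called without the transplanted tumour (adjusted p = 0.0332). Epha8 read 7.85, 7.72, 7.82 and 7.64 in GFD-Smo, against 8.35, 7.66, 9.71 and 9.25 in NG-Smo, so that NG-Smo spread over more than 2 log2 units (adjusted p = 0.246).

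Slit2 (10521759), a secreted repellent, was the ligand with the clearest difference. Its levels were 7.81, 8.31, 7.73 and 7.62 in GFD-Smo, against 6.65, 6.42, 6.71 and 6.74 in NG-Smo. All GFD-Smo arrays were higher, by 1.24 on average (SE 0.18, adjusted p = 0.000684). The levels in NG-Smo, and those in GFD-Ptch, were below 7 and near the lower quartile of an array, so no fold is given. Slit1 differed by 0.72 (adjusted p = 0.412) and Slit3 by 0.04. Without the transplanted tumour, which is in neither group but enters the shared spread, Slit1 became called at the same difference (adjusted p = 0.0123). With only these groups fitted it was called too (adjusted p = 0.0123). The receptors Robo1 (-0.37, adjusted p = 0.384), Robo2 (0.08), Robo3 (0.46) and Robo4 (0.18) were not called.

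The genes lower in GFD-Smo were receptors and 1 ligand of the semaphorin system. Plxnb2 (10431424), a receptor of class 4 semaphorins, was at 11.71, 12.003, 11.78 and 11.90 in GFD-Smo, against 12.53, 12.20, 12.17 and 12.48 in NG-Smo. It fell by 0.50 (SE 0.09, adjusted p = 0.00412), with no overlap. Plxnc1 (10372028), the receptor of Sema7a, was at 10.47, 10.67, 10.59 and 10.64 in GFD-Smo, against 11.17, 10.96, 10.99 and 11.49 in NG-Smo. All 4 GFD-Smo arrays lay below the NG-Smo arrays, by 0.56 on average (SE 0.15, adjusted p = 0.0425), while Sema7a itself differed by -0.11 (adjusted p = 0.76). Nrp2 (10346843), the co-receptor that Sema3f uses, was at 7.92, 7.99, 7.89 and 7.91 in GFD-Smo, against 8.58, 8.57, 8.69 and 8.75 in NG-Smo. Both groups were tight and apart, and Nrp2 fell by 0.72 (SE 0.14, 1.65-fold lower, adjusted p = 0.00592). Nrp1 differed by -0.47 (adjusted p = 0.0762) and Sema3f by -0.36 (0.448), neither of them called.

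Sema4f (10545608), a membrane semaphorin, was at 7.69, 7.98, 7.70 and 7.56 in GFD-Smo, against 8.57, 8.31, 8.23 and 9.42 in NG-Smo. It fell by 0.90 (SE 0.23, adjusted p = 0.03), and NG-Smo replicate 4 was the highest array. Sema3e, a repellent that binds Plxnd1 without a neuropilin, had the largest difference of the set in size, -1.51, and was not called (adjusted p = 0.269). Its levels were 8.74, 8.68, 8.68 and 9.10 in GFD-Smo, against 10.29, 9.06, 10.70 and 11.17 in NG-Smo, so the groups overlapped through NG-Smo replicate 2. Plxnd1 differed by -0.37 (adjusted p = 0.429).

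Markers of other cell types moved in the same comparison. Of 10 astrocyte markers 6 were higher in GFD-Smo and 0 lower, and their mean level was 10.99 to 11.10 in GFD-Smo, against 9.53 to 9.91 in NG-Smo. Of 10 microglia and macrophage markers 2 were lower and 0 higher (9.19 to 9.33 in GFD-Smo, against 9.47 to 9.58 in NG-Smo). Of 9 pericyte and fibroblast markers 4 were higher (8.95 to 9.21, against 8.48 to 8.92), and of 10 endothelial markers only Kdr was called, and was higher (8.31 to 8.59, against 8.0 to 8.52). None of the 4 Purkinje cell markers was called, but all lay higher in GFD-Smo, with a median of 1.26. Their mean level was 9.19 to 9.61 in 3 GFD-Smo arrays and 7.41 in replicate 4, against 7.14 to 8.63 in NG-Smo. The part of these cell types in the changes above was not tested, and in bulk tumour more cells of a type and more RNA per cell cannot be told apart.

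Epha5, Ephb4, Nrp2, Plxnb2 and Slit2 stayed past the threshold under all 29 other settings tried, and the count was 5 without NG-Smo replicate 1 or without GFD-Smo replicate 1. It was 11 without the transplanted tumour and NG-Smo replicate 4. Epha4 was lost without NG-Smo replicate 1, GFD-Smo replicate 1 or GFD-Smo replicate 2. Sema4f was lost under 8 settings, among them leaving out NG-Smo replicate 1 or 4 or GFD-Smo replicate 1, 3 or 4. Plxnc1 was lost under 16 settings (adjusted p up to 0.137), among them leaving out any 1 GFD-Smo array, replicate 1 or 4 of NG-Smo, 1 or 2 of NG-Ptch, or 2 or 3 of GFI-Ptch.

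**Figure D2:**
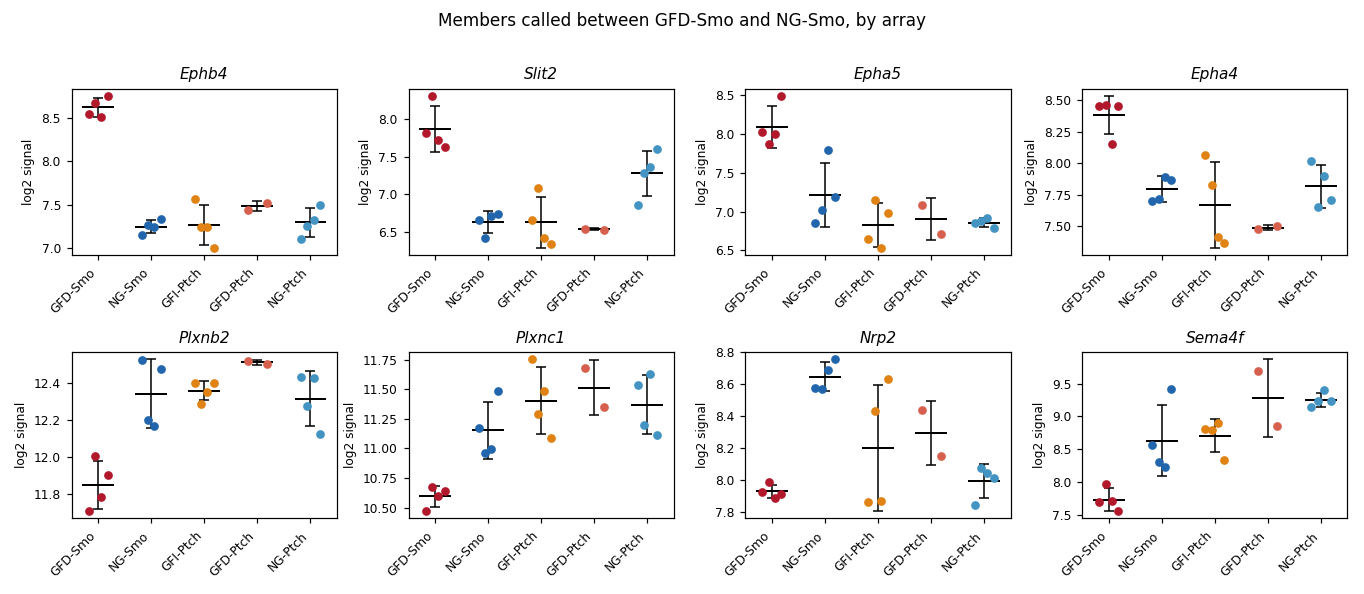
The 8 genes called between GFD-Smo and NG-Smo, 1 panel each, with log2 signal on the vertical axis (which does not start at 0) and 1 point per array in the 5 groups, and with bars for the mean and SD. Ephb4 lies between 8.52 and 8.75 in GFD-Smo and between 7.005 and 7.56 in all other arrays.

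Cytoplasmic partners and co-receptors of guidance signalling, a list of 55 genes with 53 measured, held 5 that were higher and 3 that were lower in GFD-Smo than in NG-Smo, with 45 not called and a median change of 0.04. Over all genes 2.81% were higher and 2.49% lower. The largest was Chn1, the Rac regulator alpha-chimaerin that acts below Epha4, which rose by 1.85 (SE 0.35, adjusted p = 0.00498). Also higher were Dpysl4 (0.93), of the collapsin response mediators, the adaptor Grip1 (0.63), which binds ephrin-B and Eph proteins, and the exchange factors Kalrn (0.59) and Ngef (0.31), the last of which acts below EphA receptors. Lower were Mical1 (-0.74) and Mical3 (-0.71), of the family of plexin effectors, and the Rac activator Tiam1 (-0.43).

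Whether GFD minus NG was unequal in Smo and Ptch tumours was tested as an interaction. In Smo tumours GFD and NG also differ in Cre driver, and the Ptch group names hold none. Model and Cre driver therefore cannot be told apart in this test. The difference was called in 6 of the 68 genes (8.82%), against 3.81% of all genes. It was positive, that is, higher in the Smo model, in 3 (4.41%, against 2.4% of all genes) and negative in 3 (4.41%, against 1.4%). The median was -0.12 in the set and -0.06 over all genes. Of the 6 genes 5 were also called in GFD-Smo against NG-Smo, whose arrays the test shares.

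Slit2 had the largest difference, 1.98 (SE 0.28, adjusted p = 0.00183). GFD minus NG was 1.24 (95% confidence interval 0.86 to 1.62) in Smo tumours and -0.74 (-1.21 to -0.28) in Ptch tumours. In Ptch tumours it read 6.54 and 6.52 in GFD-Ptch, against 6.86, 7.29, 7.36 and 7.60 in NG-Ptch, so that both GFD-Ptch arrays were below all 4 NG-Ptch arrays. Ephb4 differed by 1.19 (adjusted p = 0.00137), with GFD minus NG of 1.38 in Smo and 0.19 in Ptch tumours. Epha4 differed by 0.91 (adjusted p = 0.0275), with GFD minus NG of 0.58 in Smo and -0.33 in Ptch tumours.

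The receptors Nrp2 (-1.02, adjusted p = 0.0186) and Plxnb2 (-0.69, adjusted p = 0.0159) were lower in GFD than in NG among Smo tumours and differed by 0.30 and 0.20 among Ptch tumours. Sema3f, the ligand that acts through Nrp2, had an interaction of -1.36 (SE 0.32, adjusted p = 0.0279), with GFD minus NG of -0.36 (-0.78 to 0.07) in Smo and 1.01 (0.48 to 1.53) in Ptch tumours. The largest negative difference in size was that of Sema3e, -1.83, followed by Epha3 (-1.49) and Ephb1 (-1.48), none of them called (adjusted p = 0.333, 0.497 and 0.163). Of the astrocyte markers 8 of 10 were also called in this test, all higher. So were 2 of 10 neuron markers and 1 of 4 Purkinje cell markers, all higher, and 1 of 10 microglia and macrophage markers, which was lower. Their part was not tested.

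Both GFD-Ptch arrays and no NG-Ptch array had Y-linked transcripts. With the Y-linked level, or the gender label, in the model the count was 2, namely Slit2 and Ephb4. In the fit with the gender label, arrays without a male or female label formed a level of their own, among them NG-Ptch replicates 2, 4 and 5. The calls of Epha4, Nrp2, Plxnb2 and Sema3f ended in both fits and without GFD-Ptch replicate 1, and those of Epha4, Plxnb2 and Sema3f without GFD-Ptch replicate 2. Epha4 was also lost without replicate 1 of NG-Ptch or replicate 1, 2 or 4 of GFD-Smo. Sema3f was also lost without replicate 1 or 2 of NG-Ptch or any of replicates 1 to 3 of GFD-Smo.

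**Figure D3:**
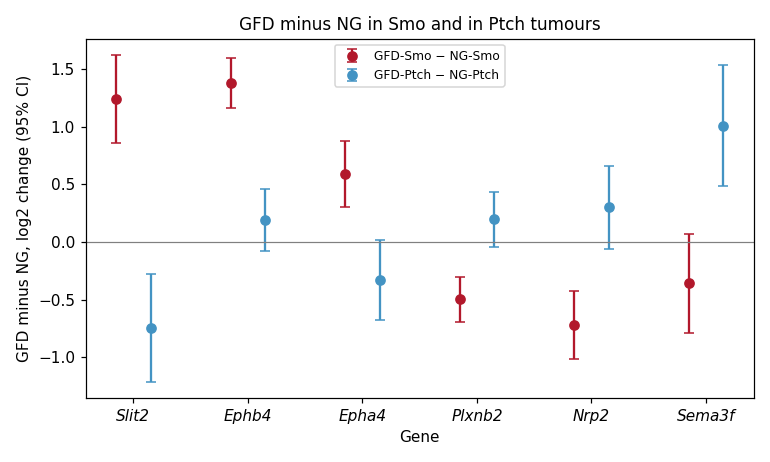
GFD minus NG in Smo tumours (red, left of each pair) and in Ptch tumours (blue, right) for the 6 genes with a called interaction, as log2 change with its 95% confidence interval. In Smo tumours GFD and NG also differ in Cre driver. Slit2 is at 1.24 in Smo and -0.74 in Ptch tumours, and Sema3f is at -0.36 in Smo and 1.01 in Ptch tumours.

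Among GFD tumours, Smo and Ptch were set against each other with 4 and 2 arrays. Sema3a, Sema3c, Sema5a, Slit2, Nrp1 and 3 Eph receptors were higher in GFD-Smo, and 4 plexins, Robo1, Ntng1, Sema3f, Sema3g, Sema4f and Sema6a were lower. The called class 3 semaphorins thus went both ways, with 2 higher and 2 lower. The genes called were 18 of 68 (26.5%), against 15.6% of all genes. Of these 8 were higher (11.8%, against 8.5% of all genes) and 10 lower (14.7%, against 7.1%). The median was -0.08 in the set and -0.06 over all genes. This comparison uses the same GFD-Smo arrays as that with NG-Smo, and 7 of the 8 genes called there were called here.

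Among ligands, Sema5a (10423520), a membrane semaphorin with thrombospondin repeats, was at 8.47, 8.50, 8.36 and 8.71 in GFD-Smo, against 6.97 and 7.10 in GFD-Ptch. It rose by 1.48 (SE 0.36, adjusted p = 0.0129), and the groups were more than 1 log2 unit apart. Sema3a (10519717), a repellent that binds Nrp1, was at 8.21, 7.82, 8.40 and 7.97 in GFD-Smo, against 6.96 and 6.72 in GFD-Ptch (change 1.26, SE 0.23, adjusted p = 0.00177). Sema3c (10519886), which signals through both neuropilins, was at 7.43, 6.93, 7.25 and 7.85 in GFD-Smo, against 6.24 and 6.37 in GFD-Ptch (change 1.06, adjusted p = 0.00323). The GFD-Ptch levels of Sema3c were near the lower quartile of an array. Those of Sema3a lay below 7, as did that of Sema5a in GFD-Ptch replicate 1 (6.97). Slit2 rose by 1.33 (adjusted p = 0.000939).

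Sema4f was the ligand with the largest decrease, at 7.73 ± 0.17 in GFD-Smo and 9.27 ± 0.59 in GFD-Ptch (SD, n = 4 and 2). It fell by 1.54 (SE 0.28, adjusted p = 0.00186). Sema3f fell by 0.82 (adjusted p = 0.0365), Sema6a, the ligand of Plxna2, by 0.46 (0.0457), Sema3g, a vascular semaphorin, by 0.35 (0.00942), and Ntng1, a membrane-anchored netrin relative, by 0.58 (0.0179). Ntng1 had another probe set, which differed by -1.15 (unadjusted p = 0.0185). Sema3d differed by 1.23, Sema3e by -1.42 and Epha3 by -1.93, with no overlap of the groups, and were not called (adjusted p = 0.0735, 0.229 and 0.17). Lack of overlap is common with 4 and 2 arrays, and held in 34.6% of all genes between NG-Ptch and GFD-Ptch. Its share over all genes was not computed for GFD-Smo and GFD-Ptch, so it is not read as a result here.

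Among receptors, 4 of 9 plexins were lower and 0 higher. Plxnb2 fell by 0.67 (adjusted p = 0.00113), Plxnc1 by 0.92 (0.00399), Plxnd1 by 0.90 (0.0259) and Plxna2 by 0.85 (0.019). Plxna2 (10352867) was at 9.73, 10.05, 9.95 and 9.71 in GFD-Smo, against 10.90 and 10.52 in GFD-Ptch. The Slit receptor Robo1 (10436519) was at 10.72, 10.86, 10.81 and 11.03 in GFD-Smo, against 11.67 and 11.62 in GFD-Ptch, and fell by 0.79 (adjusted p = 0.0332). Its ligand Slit2 lay in the other direction. The receptors that rose were Ephb4 (1.14, adjusted p = 5.12e-05), Epha5 (1.20, 0.00274), Epha4 (0.89, 0.0022) and Nrp1 (0.62, 0.0283). Nrp1 (10576639) was at 8.74, 9.07, 8.73 and 8.67 in GFD-Smo, against 8.19 and 8.17 in GFD-Ptch, and the groups were apart.

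Of the 53 partners 7 were higher and 5 lower here, against 8.5% and 7.1% of all genes. Chn1 rose by 3.22 (adjusted p = 0.000201), and Mical3 fell by 1.35 (adjusted p = 0.000434). The Slit-Robo GTPase activators parted, with Srgap1 at 0.79 and Srgap2 and Srgap3 at -0.60 and -0.88, all called. The netrin receptor Dcc fell by 0.41 (adjusted p = 0.0435). The others called were Grip1 (0.81), the repulsive cue Rgma (0.70), Kalrn (0.61), the kinase Pak3 (0.58) and Ngef (0.34), all higher, and Tiam1 (-0.39), which was lower. In the interaction of the models 3 partners were higher, Chn1 (3.02), Srgap1 (0.90) and Grip1 (0.88), and 1 lower, Mical3 (-1.14), against 2.4% and 1.4% of all genes.

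In this comparison 9 of 10 astrocyte markers were higher in GFD-Smo (10.99 to 11.10 in GFD-Smo, against 8.72 to 8.83 in GFD-Ptch). So were 4 of 8 oligodendrocyte progenitor markers (10.15 to 10.35, against 8.86 to 9.02) and 5 of 10 microglia and macrophage markers (9.19 to 9.33, against 8.52 to 8.83). Of 10 neuron markers 2 were higher and 1 lower, of 10 endothelial markers 1 was higher and 1 lower, and of 9 pericyte and fibroblast markers 2, of 5 oligodendrocyte markers 1 and of 4 Purkinje cell markers 1 were higher. Of 10 granule neuron progenitor markers 1 was lower. Their part in the changes was not tested. With 2 GFD-Ptch arrays the count was 10 without GFD-Ptch replicate 1 and 8 without GFD-Ptch replicate 2, fits in which the lone array is assumed to vary like the other groups, and 28 without the transplanted tumour. Ephb4, Slit2, Epha4, Plxnb2, Sema3a, Sema3c and Sema4f stayed past the threshold under all 29 settings, whereas Sema6a was lost under 16, Sema3f under 9 and Robo1 under 8, which include leaving out either GFD-Ptch array. Nrp1, Ntng1, Plxna2, Plxnd1 and Sema5a were also lost without either GFD-Ptch array, Plxnc1 without replicate 1, and Epha5 and Sema3g without replicate 2. Both GFD-Ptch arrays and 1 of 4 GFD-Smo arrays carried Y-linked transcripts. With the gender label or the Y-linked level as a covariate 12 of the 18 stayed called. Ntng1, Plxna2, Robo1, Sema3f and Sema6a were lost in both fits, Sema5a with the gender label and Nrp1 with the Y-linked level. Leaving out 1 GFD-Smo array ended the calls of Nrp1 (replicate 2), Plxnd1 (replicate 4), Robo1 (replicates 1 to 3), Sema6a (1, 3 and 4) and Sema3f (any). Sema6a was lost too without replicate 1, 2 or 4 of NG-Ptch, 1 or 2 of GFI-Ptch, or 3 of NG-Smo.

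**Figure D4:**
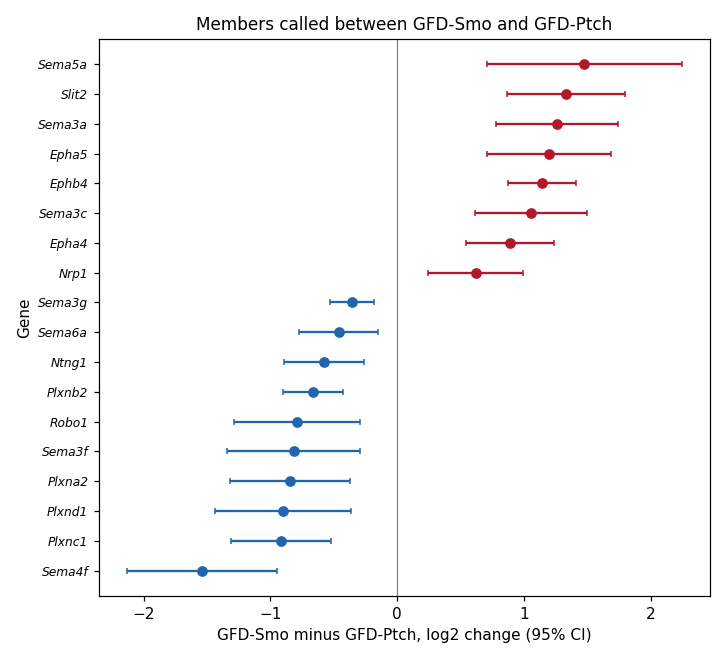
The 18 genes called between GFD-Smo and GFD-Ptch (rows), as log2 change with its 95% confidence interval, in red where higher in GFD-Smo and in blue where lower. They run from Sema5a at 1.48 to Sema4f at -1.54.

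Among NG tumours the neuropilins were the genes that differed, both being higher in NG-Smo than in NG-Ptch. They were 2 of the 68 genes called (2.94%), against 1.04% of all genes, and both calls were in the higher direction, which held 0.607% of all genes. Nrp1 was at 9.13, 9.76, 9.10 and 9.09 in NG-Smo, against 8.76, 8.52, 8.33 and 8.28 in NG-Ptch, and NG-Smo replicate 2 was far above the rest. The change was 0.80 (SE 0.14, adjusted p = 0.0162). Nrp2 was at 8.58, 8.57, 8.69 and 8.75 in NG-Smo, against 7.84, 8.07, 8.04 and 8.02 in NG-Ptch, and rose by 0.65 (SE 0.14, adjusted p = 0.0378), with a gap between the groups wider than the spread of either.

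Of their ligands Sema3f differed by 0.55 (adjusted p = 0.286), Sema3a by 0.38 (0.5) and Sema3c by 0.35 (0.497), and none was called. Efna3 had the largest difference, 1.01, but ranged from 7.50 to 9.53 in NG-Smo and from 6.81 to 8.38 in NG-Ptch (adjusted p = 0.634). The largest decreases were in the netrin receptors Unc5d (-0.87, adjusted p = 0.193) and Unc5c (-0.80, 0.43) and in Slit2 (-0.65, 0.118), none of them called. Slit2 was at 6.65, 6.42, 6.71 and 6.74 in NG-Smo, against 6.86, 7.29, 7.36 and 7.60 in NG-Ptch, with no overlap. No partner was called by limma. The largest partner differences were Islr2 (1.76, adjusted p = 0.512) and Chl1 (0.58) above 0 and Dscaml1 (-0.52) and Draxin (-0.40) below it. Of the cell type lists 3 of 10 microglia and macrophage markers were higher in NG-Smo (9.47 to 9.58, against 8.89 to 9.37), whose part was not tested. Nrp2 was not called without any 1 NG-Ptch, NG-Smo or GFD-Smo array or with the gender label in the model. Nrp1 was not called without NG-Ptch replicate 4 or 5 or with only these groups fitted. Neither was called with the replicate number as a block. With the transplanted tumour and NG-Smo replicate 4 left out 11 genes of the set were called, among them Sema4f (-0.89 in that fit, adjusted p = 0.00695) and Epha7 (0.63, adjusted p = 0.0182). Without the transplanted tumour alone 4 were called, Nrp1, Nrp2, Ntn4 and Sema3f.

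Among the Ptch subtypes no gene of the set was called by limma. In GFD-Ptch against NG-Ptch 0 of 68 were called, against 0.01% of all genes, and 11 had an unadjusted p under 0.05 (16.2%, against 16.9% of all genes). In GFI-Ptch against NG-Ptch these were 0, against 0% of all genes, and 12 (17.6%, against 8.53%). In GFI-Ptch against GFD-Ptch they were 0, against 0.00502%, and 8 (11.8%, against 9.79%). The groups did not overlap in 35 genes for GFD-Ptch and NG-Ptch (51.5%, against 34.6% of all genes), in 6 for GFI-Ptch and NG-Ptch (8.82%, against 4.86%) and in 11 for GFI-Ptch and GFD-Ptch (16.2%, against 16.5%). Of the 68 genes 46 lay above 0 in GFD-Ptch minus NG-Ptch (median 0.14, against 0.04 over all genes), 37 in GFI-Ptch minus NG-Ptch (0.01, against 0.02) and 19 in GFI-Ptch minus GFD-Ptch (-0.11, against -0.02). These 3 comparisons share their arrays pairwise.

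The largest differences of GFD-Ptch from NG-Ptch were in Sema3d and Sema3f, which lay in opposite directions. The other 5 class 3 semaphorins ranged from -0.28 to 0.33. Sema3f (10596747) was at 8.63, 8.80, 9.07 and 9.84 in GFI-Ptch and 9.23 and 9.36 in GFD-Ptch, against 8.28, 8.04, 8.38 and 8.46 in NG-Ptch. All arrays of both groups were above all NG-Ptch arrays, by 0.80 in GFI-Ptch (unadjusted p = 0.00119, adjusted p = 0.239) and 1.01 in GFD-Ptch (0.00093, 0.131). Sema3f became called in GFD-Ptch against NG-Ptch without the transplanted tumour (adjusted p = 0.0176), which leaves the difference as it is and changes the shared spread. Sema3d (10519693), a secreted class 3 semaphorin, was at 7.86, 8.98, 7.44 and 6.48 in GFI-Ptch and 7.62 and 7.50 in GFD-Ptch, against 9.24, 8.90, 8.92 and 8.64 in NG-Ptch. GFI-Ptch overlapped NG-Ptch through replicate 2, and both GFD-Ptch arrays were lower (-1.23 in GFI-Ptch, adjusted p = 0.317, and -1.36 in GFD-Ptch, adjusted p = 0.201). In GFD-Ptch against NG-Ptch, Sema3d became called in limma with only these groups fitted (adjusted p = 0.0165). It was also called without the transplanted tumour and NG-Smo replicate 4 (adjusted p = 0.0405), but not without the transplanted tumour alone.

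Other ligands with large differences in GFD-Ptch were Sema5a, with a change of -0.93 (adjusted p = 0.246), and Slit2, with -0.74 (0.176). Slit2 was at 6.66, 7.09, 6.42 and 6.34 in GFI-Ptch, which overlapped NG-Ptch in replicate 2 (change -0.65, adjusted p = 0.262). The receptors Epha3 (0.92, adjusted p = 0.611) and Ephb1 (0.66, 0.427) had the largest positive differences next to Sema3f. Neither was called, and Epha3 ranged over all 18 arrays from 6.83 in the transplanted tumour to 11.12 in NG-Smo replicate 2.

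In GFI-Ptch the receptors Unc5c and Plxna2 had the largest negative differences together with Sema3d. Unc5c (10496519), a repulsive netrin receptor, was at 8.70, 8.99, 8.88 and 8.14 in GFI-Ptch and 9.81 and 9.84 in GFD-Ptch, against 9.90, 10.02, 9.86 and 10.30 in NG-Ptch. Every GFI-Ptch array was below every array of the other Ptch groups, by 1.34 against NG-Ptch (SE 0.35, adjusted p = 0.244) and by 1.15 against GFD-Ptch (adjusted p = 0.41). Plxna2 was at 9.55, 9.73, 9.97 and 9.06 in GFI-Ptch and 10.90 and 10.52 in GFD-Ptch, against 10.08, 10.44, 10.25 and 10.79 in NG-Ptch. It too lay lower in all 4 GFI-Ptch arrays, with differences of -0.81 from NG-Ptch (adjusted p = 0.18) and -1.13 from GFD-Ptch (adjusted p = 0.211, and 0.0497 without GFI-Ptch replicate 3). Unc5b differed by -0.61 from NG-Ptch and -0.83 from GFD-Ptch, and Unc5d by -0.76 from NG-Ptch, with adjusted p of 0.257, 0.229 and 0.445.

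The largest positive differences of GFI-Ptch from NG-Ptch were set by 1 array. Robo3 was at 7.04, 7.25, 6.65 and 9.18 in GFI-Ptch, against 6.43, 6.50, 6.57 and 6.69 in NG-Ptch, and Efna3 at 7.84, 8.01, 7.42 and 10.65, against 8.38, 6.81, 8.03 and 7.21. In both the transplanted tumour, listed last, was the highest of all 18 arrays, and neither gene was called (0.98, adjusted p = 0.475, and 0.87, adjusted p = 0.73). Without the transplanted tumour (and NG-Smo replicate 4) these differences were 0.43 in Robo3 and 0.15 in Efna3. In the same fit Unc5c was at -1.16, Sema3d at -0.83, Plxna2 at -0.64 and Sema3f at 0.55 in GFI-Ptch minus NG-Ptch, none of them called (adjusted p = 0.171, 0.184, 0.121 and 0.106). Slit1, another ligand of the Robos, was at 9.70 in that tumour and at 7.19 to 8.40 in the other 17 arrays. Markers of developing muscle had a mean level of 10.16 in that tumour and of 7.02 to 8.04 in the other arrays. Against GFD-Ptch, GFI-Ptch had its largest positive differences in Epha8 (0.71, adjusted p = 0.651), Robo3 (0.64) and Nrp1 (0.55, adjusted p = 0.347). Nrp1 was at 8.81, 8.76, 8.79 and 8.54 in GFI-Ptch, against 8.19 and 8.17 in GFD-Ptch, with no overlap, and Sema3e differed by -1.01 (adjusted p = 0.681).

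No partner was called among the Ptch subtypes by limma either. In GFD-Ptch minus NG-Ptch the largest differences were Islr2, a membrane protein of growing axons, at 1.79 and the actin-binding Ablim3 at 1.04, and Chn1 at -1.17 and Srgap1 at -0.46 (adjusted p = 0.386, 0.268, 0.233 and 0.247). In GFI-Ptch minus NG-Ptch they were Dcc at 0.34 and Rgmb at 0.31, and L1cam, an axonal adhesion protein, at -1.04 (adjusted p = 0.2) and Srgap1 at -0.65. In GFI-Ptch minus GFD-Ptch they were Chn1 at 0.72 and Pak3 at 0.48, and Islr2 at -1.68 and L1cam at -1.17. Astrocyte markers had mean levels of 8.42 to 10.30 in GFI-Ptch and 8.72 to 8.83 in GFD-Ptch, against 9.65 to 9.76 in NG-Ptch. Those of oligodendrocyte progenitors were at 7.76 to 9.81 in GFI-Ptch and 8.86 to 9.02 in GFD-Ptch, against 9.81 to 10.29 in NG-Ptch. Endothelial markers were at 7.67 to 8.15 in GFI-Ptch and 8.35 to 8.38 in GFD-Ptch, against 7.80 to 8.27 in NG-Ptch, and all 10 lay higher in GFD-Ptch than in NG-Ptch. Microglia and macrophage markers were at 8.78 to 9.46 in GFI-Ptch and 8.52 to 8.83 in GFD-Ptch, against 8.89 to 9.37 in NG-Ptch, and all 10 lay below NG-Ptch in GFD-Ptch. No marker of these 4 lists was called, and their part was not tested. Among the GFD-Ptch and NG-Ptch arrays sex and group cannot be told apart.

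**Figure D5:**
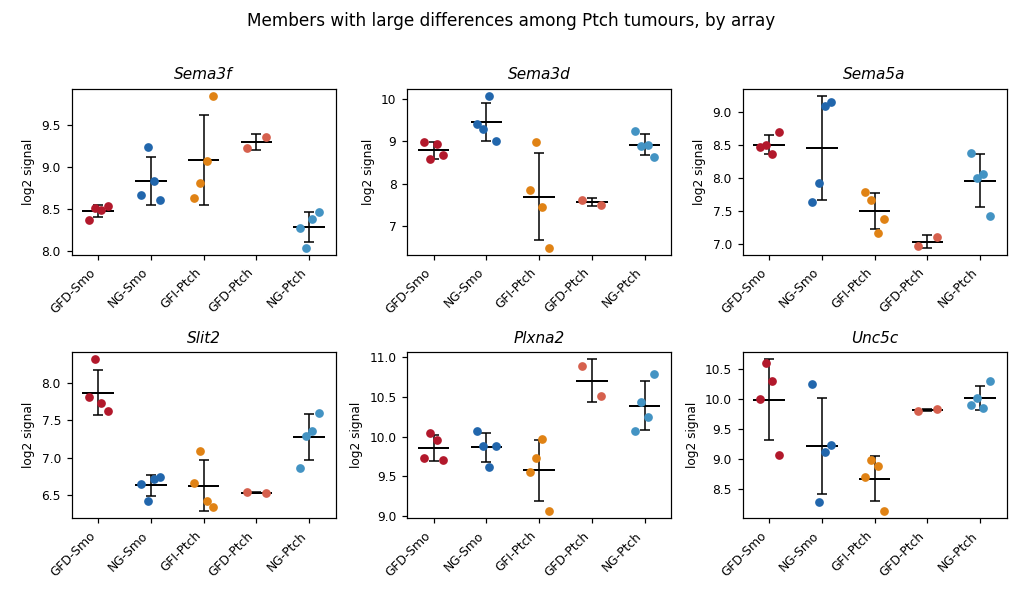
Sema3f, Sema3d, Sema5a, Slit2, Plxna2 and Unc5c, 1 panel each, with log2 signal on the vertical axis (which does not start at 0) and 1 point per array in the 5 groups, and with bars for the mean and SD. The 6 genes are among those with the largest differences between Ptch subtypes: the GFI-Ptch arrays of Unc5c lie between 8.14 and 8.99, and those of GFD-Ptch and NG-Ptch between 9.81 and 10.30.

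Other genes are given by their ranges. The ephrins differed by -0.49 to 1.01 over the 6 pairwise comparisons and none was called. Ntn1, the diffusible netrin of the midline, differed by -0.27 to 0.40, and Ntn3, Ntn4 and Ntn5 were not called in any of the 7 comparisons. Sema7a differed by -0.28 to 0.14. Robo2 differed by -0.43 to 0.40 and Robo4, an endothelial Robo, by -0.30 to 0.34. Plxna4, which Sema6a binds, differed by -0.02 to 0.40, the ephrin Efna1 by -0.32 to 0.20 and the netrin receptor Unc5a by -0.28 to 0.25. None of these was called in any of the 7 comparisons. Of the 6 genes with more than 1 probe set, Epha10, Ephb1, Ntng1, Sema4d, Sema6b and Unc5d, only Ntng1 was called in any comparison.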

How the data were processed

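Per the labels' protocols, RNA had been isolated with Trizol from tumour tissue of 18 samples and hybridized to Affymetrix Gene ST 1.0 arrays. The values analysed are the deposited log2 values of 35556 probe sets, which the authors processed in Partek 6.6, per the submitters' processing notes. Background correction, normalization and scan batches are not given in the sources used here. Arrays give no read depth, so precision is limited by their number.

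Genes were probe sets with exactly 1 symbol in the platform annotation, the one with the highest mean standing for its gene. Group means of all 18 arrays were fitted with limma 3.58.1 in R 4.3.3 (lmFit, eBayes), with 7 contrasts and Benjamini-Hochberg adjustment over 19938 genes. Plots and promoter searches used Python 3.11.15. No label says that samples of a group came from separate mice, so p-values measure the spread between these samples. Named with values were genes called in any contrast, the 3 largest changes each way per contrast among genes with a highest group mean of at least 7, and the highest and lowest gene of each family. The promoters printed were chosen after the values were seen. The genes, marker lists and partner list were chosen with earlier results of these data known. The fit was tested on simulated data. The alternatives were other scalings, probe set and array rules, covariates, and leaving out arrays.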

Additional observations from a re-analysis of the deposited data

Results flagged for a closer look

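Among the 38 named genes, 152 sets of 4 arrays of 1 group were looked at, and in 11 a single array lay far from the other 3 relative to the range of the group, where chance gives about 1 in 20. The arrays below their group were the transplanted tumour for Epha3 (6.83, others 10.03 to 10.37), GFD-Smo replicate 3 for Epha4 (8.15, others 8.45 to 8.46), NG-Smo replicate 2 for Plxna4 (7.79, others 8.17 to 8.19) and NG-Smo replicate 1 for Plxnd1 (9.32, others 9.81). Also below were NG-Ptch replicate 5 for Robo1 (10.75, others 11.11 to 11.16), NG-Ptch replicate 1 for Sema3c (6.40, others 6.50 to 6.51) and GFI-Ptch replicate 3 for Sema3g (7.85, others 7.96 to 7.97). Those above were NG-Smo replicate 2 for Nrp1 (9.76, others 9.09 to 9.13), NG-Smo replicate 1 for Ntng1 (8.55, others 8.37 to 8.40), GFD-Smo replicate 1 for Ntng1 (8.27, others 8.17 to 8.19) and GFD-Smo replicate 4 for Sema3e (9.10, others 8.68 to 8.74). Several of these gaps are small on the log2 scale.

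The difference of GFD minus NG between Smo and Ptch tumours, in which model and Cre driver cannot be told apart, passed the test in 6 genes. It was 1.98 in Slit2, 1.19 in Ephb4, 0.91 in Epha4, -0.69 in Plxnb2, -1.02 in Nrp2 and -1.36 in Sema3f (limma, adjusted p = 0.00183, 0.00137, 0.0275, 0.0159, 0.0186 and 0.0279).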

How the results depend on the processing

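The 34 called changes, in 19 genes, were refitted under 29 other settings each. None changed direction, 857 refits kept the call and 129 did not, and 14 changes kept it in all settings. Leaving out the transplanted tumour and NG-Smo replicate 4 together, or the arrays against their gender label, was chosen after seeing the data. The count of genes called in GFD-Ptch against NG-Ptch was 0, and it was 2 with array weights, 2 with only the groups compared, 3 without those 2 arrays and 0 to 1 when each array was left out in turn. In GFI-Ptch against NG-Ptch it was 0, with 1 under array weights and 0 to 0 when each array was left out, and in GFI-Ptch against GFD-Ptch 0, with 0 to 1 when each was left out. In GFD-Smo against NG-Smo it was 8, with 5 to 10 when each was left out. In NG-Smo against NG-Ptch it was 2, and it was 5 with array weights, 1 with only the groups compared, 1 with the gender label, 0 with the replicate block (Nrp1 and Nrp2 both lost), 11 without those 2 arrays and 0 to 4 when each was left out. In GFD-Smo against GFD-Ptch it was 18, and it was 31 with array weights, 45 with only the groups compared, 30 without those 2 arrays and 8 to 28 when each was left out. For the difference between the models it was 6, and it was 10 with array weights, 10 with only the groups compared, 2 with the gender label, 2 with the Y-linked level and 2 to 9 when each was left out. With the replicate number as a block the counts were 8, 18 and 5 in GFD-Smo against NG-Smo, in GFD-Smo against GFD-Ptch and for the models. The labels do not say whether shared replicate numbers mark pairs or a batch. The deviations of same-numbered arrays from their group means correlated at -0.28 to 0.09, and at 0.04 to 0.08 between NG-Smo and NG-Ptch. With 2 to 4 arrays per group such correlations cannot exclude pairing or a batch. The causes were not tested. GFD-Ptch had 2 arrays, which limits the comparisons with it.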
